A study of Homo sapiens with 12 samples.

Results

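The heat shock chaperones followed here were 10 genes picked by name, out of 18665 genes with a value in each table. They were the HSP70 genes HSPA1A, HSPA1B and HSPA8, the HSP110 gene HSPA4L, the cytosolic HSP90 genes HSP90AA1 and HSP90AB1, the small heat shock protein gene HSPB1, the mitochondrial chaperonin genes HSPD1 and HSPE1, and the J domain gene DNAJB1. RNA was sequenced in 12 libraries, 3 in each of 4 groups, all of which carry the label HT29, a cell line from a human carcinoma of the colon. By their labels, CM10 libraries came from HT29 cells given CM10, an inhibitor of ALDH1A enzymes, and CTRL_CM10 libraries were their controls. Likewise by label, shZBTB7B libraries came from HT29 cells with a short hairpin RNA against the transcription factor ZBTB7B, and CTRL_shZBTB7B libraries were their controls. What the controls received, and whether a hairpin line was 1 clone, is not given in the sources used here. The values were transcript abundances scaled for length and to a fixed total per library (TPM), so the depth of the libraries is unknown. No source says that the replicates are separate cultures. The p-values therefore cover the spread among these libraries and no more, and that spread may be technical.

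Heat shock proteins are molecular chaperones: they bind unfolded or newly made proteins and help them fold. HSP70 proteins work with J domain proteins, which deliver clients and stimulate ATP hydrolysis, and with HSP110 proteins, which exchange the nucleotide. HSP90 matures kinases and steroid receptors, small heat shock proteins hold unfolded clients, and HSPD1 with its lid HSPE1 forms the folding chamber of mitochondria. Under proteotoxic stress the transcription factor HSF1 binds heat shock elements, inverted repeats of the pentamer NGAAN, and induces many of these genes. Colon carcinoma cells, like many tumour cells, are known for high chaperone levels.

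The promoters of 9 of the 10 genes held a heat shock element. The genes were picked by name and not by promoter, but HSF1 induces many genes of this name through that element. RefSeq promoter windows of 300 bases (build GRCh38.p14) were searched on both strands for the basic heat shock element, GAANNTTC or TTCNNGAA, and all 10 genes had at least 1 window. The element was present in a window of 9 of the 10 genes, against 14.68% of 14410 genes of the tables with a window. A gene can have several windows, and by window it was present in 10 of 18, against 13.49% of all 35116. A run of 3 alternating pentamer units was present in 4 of the 10 (HSPA8, HSP90AA1, HSP90AB1 and HSPD1), against 0.55% of genes. TATAAA was in 3 of the 10 against 11.42% of genes, and CCAAT in 6 of the 10 against 42.28%. Such matches describe the letters in the window and are no measure of binding. A stretch that holds the element is printed for each of the 9 genes, 5′ to 3′ on the strand of the gene, at the coordinates in GRCh37 to which each was matched exactly, with heat shock elements and TATAAA in capitals. HSPA1A and HSPA1B come first, because their elements and TATA boxes lie in near-identical stretches.
HSPA1A, chr6:31783204-31783305, plus strand: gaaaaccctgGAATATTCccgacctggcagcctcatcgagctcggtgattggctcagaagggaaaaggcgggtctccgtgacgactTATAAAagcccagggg
HSPA1B, chr6:31795400-31795501, plus strand: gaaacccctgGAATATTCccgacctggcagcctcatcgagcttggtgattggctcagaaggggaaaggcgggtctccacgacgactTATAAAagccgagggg
The HSPA1A and HSPA1B stretches hold the same element, GAATATTC, and the same TATA box. HSPA8 and the HSP90 pair carry clusters of overlapping elements.
HSPA8, chr11:122932877-122933084, minus strand: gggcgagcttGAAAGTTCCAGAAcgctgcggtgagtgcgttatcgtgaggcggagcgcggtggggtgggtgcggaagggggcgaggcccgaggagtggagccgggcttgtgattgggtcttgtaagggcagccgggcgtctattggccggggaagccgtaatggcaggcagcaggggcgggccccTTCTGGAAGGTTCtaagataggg
HSP90AA1, chr14:102553432-102553479, minus strand: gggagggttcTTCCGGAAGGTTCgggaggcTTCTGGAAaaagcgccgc
HSP90AB1, chr6:44215505-44215590, plus strand: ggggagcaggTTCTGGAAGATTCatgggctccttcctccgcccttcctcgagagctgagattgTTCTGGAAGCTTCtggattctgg
The chaperonin gene HSPD1 carries a run of overlapping elements, and HSPB1, DNAJB1 and HSPA4L carry separate ones.
HSPD1, chr2:198364782-198364814, minus strand: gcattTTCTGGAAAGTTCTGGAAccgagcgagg
HSPB1, chr7:75931798-75931825, plus strand: cttaacgagaGAAGGTTCcagatgaggg
DNAJB1, chr19:14629239-14629296, minus strand: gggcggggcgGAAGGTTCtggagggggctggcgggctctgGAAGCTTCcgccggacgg
HSPA4L, chr4:128703297-128703324, plus strand: ttccagatctTTCTCGAAcccgcagctt
None of these stretches overlapped an exon of the canonical transcript. In 8 of the 9 genes the middle of the stretch lay 58 (DNAJB1) to 234 (HSPD1) bases before the start of that transcript, and in HSP90AB1 it lay in an intron, at a distance before the start of -709 bases, which is downstream of it. A second DNAJB1 window also held 1 element and is not printed. HSPE1 held no match in its window. HSPE1 and HSPD1 lie head to head on chromosome 2, with starts 105 or 539 bases apart depending on the HSPD1 start, and the run of elements printed for HSPD1 lay 294 to 311 bases before the HSPE1 start, outside its window.

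The genes also differ in how surely a read can be assigned to them. HSPA1A (chr6:31783320-31785723) and HSPA1B (chr6:31795515-31798031) are single-exon neighbours whose coding sequences were identical at 1922 of 1926 bases (99.8%), so their split is uncertain. HSP90AA1 and HSP90AB1 shared 75.2% of aligned coding bases and HSPA1A and HSPA8 73.3%, with no stretch of 50 identical bases in common. The annotation (GENCODE, lifted to GRCh37) names 26 pseudogenes of HSPE1, 18 of HSPD1 and 17 of HSPA8, and reads of these copies may be counted in the parent. HSPA4L (chr4:128702976-128761888, 19 exons) has a canonical transcript of 10608 bases, of which 2520 are coding and 7859 are 3′ UTR. That UTR holds words of 18 bases that recur in at least 500 of the 17951 genes searched, called repeat words here. The canonical transcript of HSPA4L had 409 positions with a repeat word, all in its 3′ UTR. Of the 4 protein-coding transcripts of HSPA4L, it was the 1 that carried such words. HSPD1 and DNAJB1 carried repeat words in non-canonical transcripts alone, and the other 7 genes carried none.

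The libraries differed in ways that touch every value below. ZBTB7B, the target of the hairpin, was at 22.3, 25.1 and 25.4 TPM in CTRL_shZBTB7B and at 2.55, 5.97 and 0 TPM in shZBTB7B. Genes with a repeat word took 77.8% to 83.5% of TPM in CM10 and 6.5% to 29.5% in CTRL_CM10. In the hairpin experiment such genes held 22.8% to 25.5% in the controls, and 71.7%, 17.4% and 66.1% in the libraries with the hairpin. The MTRNR2L family, whose members resemble a ribosomal RNA of mitochondria, held 5.62%, 73.82% and 45.98% in the CTRL_CM10 libraries, 29.9% in shZBTB7B replicate 2 and at most 10.41% elsewhere. Genes above 0 numbered 8493 to 13051 in CM10, 13237 to 14627 in CTRL_CM10, 9597 to 14354 in shZBTB7B and 15969 to 16245 in CTRL_shZBTB7B. shZBTB7B replicate 2 had rank correlations of 0.791 to 0.82 with its controls and of 0.419 to 0.447 with the other shZBTB7B libraries. The HT29 label was checked against 11 colon carcinoma markers, of which 3 to 11 were above 0 in a library. CDX2, a transcription factor of intestinal epithelium, was listed at 0 in 8 of the 12 libraries. Summed levels of stomach markers reached 67786 TPM (CTRL_CM10 replicate 3), those of muscle markers 45918 TPM (CTRL_shZBTB7B replicate 2) and those of leukocyte markers 6069 TPM (CTRL_shZBTB7B replicate 3), where the colon carcinoma markers summed to at most 2307 TPM. Replicates of a group differed as well, with stomach markers at 121, 14691 and 67786 TPM in CTRL_CM10. HT29 is therefore given as a label, and which cells the RNA came from was not tested.

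HSPB1 had the highest median level of the 10 genes in both control groups, in TPM, which is per transcript length. In CTRL_CM10 the medians descended from HSPB1 (665 TPM) through HSP90AB1 (386), HSPA8 (245), HSP90AA1 (221), HSPE1 (163), HSPD1 (78.4), DNAJB1 (37.1), HSPA1A (20.7) and HSPA1B (18.1) to HSPA4L (1.68). In CTRL_shZBTB7B the order ran from HSPB1 (1127 TPM) through HSPA8 (725), HSP90AB1 (659), HSP90AA1 (547), HSPE1 (299), HSPA1A (276), HSPA1B (175), HSPD1 (170) and DNAJB1 (73.1) to HSPA4L (2.35). The ranges of most neighbours in these orders overlapped. Ranges leave out that the genes were measured in the same libraries. In CTRL_shZBTB7B the ranges of HSP90AB1 and HSP90AA1 overlapped, yet HSP90AB1 was the higher in each library. Of 9 neighbouring pairs, the ranges over 3 libraries were apart in 1 in CTRL_CM10 (HSPE1 above HSPD1), in 3 in CTRL_shZBTB7B (HSP90AA1 above HSPE1, HSPD1 above DNAJB1, DNAJB1 above HSPA4L) and in 0 in CM10 and in shZBTB7B. In CM10 HSPA4L stood first with a median of 357 TPM, and HSPE1 last at 0. In shZBTB7B HSPA4L was the third, at a median of 218 TPM.

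**Figure D1:**
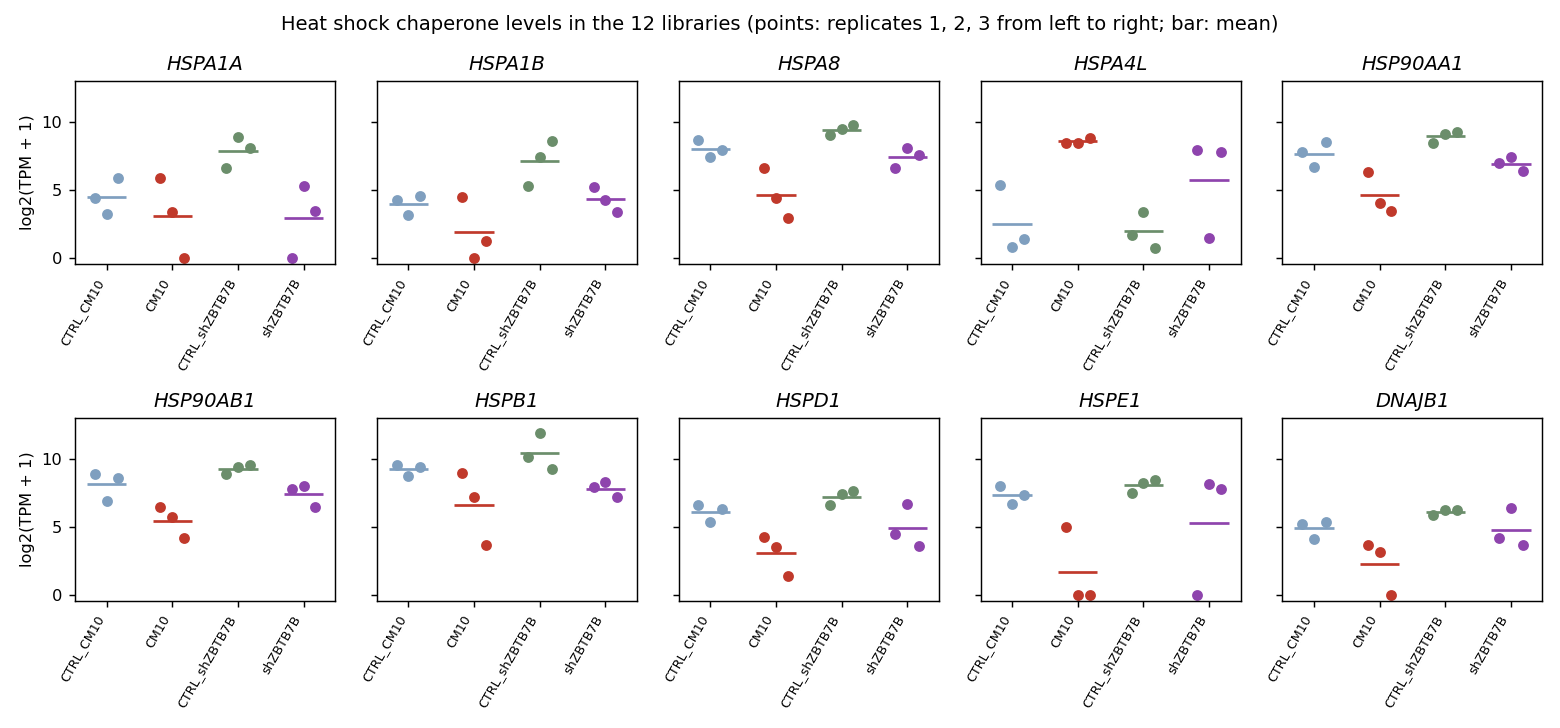
Level of each heat shock chaperone in each library, as log2(TPM + 1), for the 4 groups. Points are replicates 1, 2 and 3 from left to right and bars are group means. HSPA4L is high in the 3 CM10 libraries and in shZBTB7B replicates 1 and 3, where most other members are low.

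Relative to their controls, CM10 libraries had lower TPM of several chaperone genes and higher TPM of 1. HSPA8, HSP90AA1, HSPD1 and HSPE1 fell and HSPA4L rose in limma's moderated test over all genes (adjusted p under 0.05), while the other 5 did not pass. Among all 12529 genes tested, 18.3% fell and 13.6% rose, and the median gene was at a difference of -1.0 on the log2(TPM + 1) scale. All 10 members passed the filter on low values. Leaving HSPA4L aside, the 9 others had a median difference of -2.66 on that scale, beside -1.0 for all genes, and 6 of the 9 had groups that did not overlap. Of all genes, 28.9% were lower and 18.5% higher without overlap. The 9 are set apart from HSPA4L after its direction was seen, so these counts are a description. Scaling moved the split of calls: 1705 genes rose and 2298 fell in the main fit, 2326 and 1862 after quantile normalization, and 1632 and 5550 once MTRNR2L genes were left out. The median of all genes was then -0.27 and -1.72, and 6 and 8 of the 10 members fell. When genes with a repeat word were left out and the rest rescaled, 7 members were tested and none passed by limma, with 2 at an unadjusted p under 0.05. HSPE1 was at -6.27 in that fit (adjusted p = 0.103), beside -5.69 in the main one. Each of the other members tested had a smaller difference there. HSPA8 went from -3.33 to -2.11, HSP90AA1 from -3.05 to -1.82 and HSP90AB1 from -2.66 to -1.395. HSPB1 went from -2.58 to -1.32, HSPA1A from -1.43 to -1.11 and HSPA1B from -2.06 to -1.81. The median of the 7 was -1.81 beside -1.24 for all 8093 genes tested, and that fit called 152 genes. The level of the 9 together summed to 2285, 991 and 2027 TPM in CTRL_CM10 and 914, 263 and 49.7 TPM in CM10. Genes with a repeat word took 77.8% to 83.5% of the fixed total in CM10 and 6.5% to 29.5% in CTRL_CM10, and their part in these sums was not tested. Fewer cells with high chaperone levels and less chaperone RNA per cell cannot be told apart in bulk libraries either.

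The constitutive HSP70, HSPA8, which folds new proteins and uncoats clathrin, was at 404, 173 and 245 TPM in CTRL_CM10 and at 100.3, 20.5 and 6.84 TPM in CM10. Each CM10 library was below every control. The difference was -3.33 ± 1.12 (log2 scale, estimate ± SE, adjusted p = 0.0332). HSPA1A, the stress-inducible HSP70, was at 20.7, 8.40 and 59.5 TPM in controls and 58.3, 9.59 and 0 TPM in CM10, so the groups overlapped (difference -1.43 ± 1.23, adjusted p = 0.351). Its twin HSPA1B was at 18.1, 8.19 and 22.5 TPM against 21.8, 0 and 1.48 TPM, also with overlap (-2.06 ± 1.07, adjusted p = 0.132). Since reads of the twins cannot be separated with certainty, their sum is the safer quantity. It was 38.8, 16.6 and 82.0 TPM in controls and 80.1, 9.59 and 1.48 TPM in CM10, with CM10 replicate 1 among the highest. The fall of HSPA8 lost its call without CTRL_CM10 replicate 3 (adjusted p = 0.0613), CM10 replicate 2 (0.131) or CM10 replicate 3 (0.151).

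Both cytosolic HSP90 genes were lower in every CM10 library than in any control. HSP90AA1, the inducible form, was at 221, 104 and 366 TPM in CTRL_CM10 and 78.9, 15.7 and 10.2 TPM in CM10 (-3.05 ± 1.08, adjusted p = 0.0404). HSP90AB1, the constitutive form, was at 474, 118 and 386 TPM against 88.2, 51.5 and 17.4 TPM (-2.66 ± 1.11, adjusted p = 0.0711), and did not pass. An adjusted p on either side of the threshold does not show that the pair differed, and their ratio is tested further on. The call of HSP90AA1 was lost without CTRL_CM10 replicate 3 (adjusted p = 0.129), CM10 replicate 2 (0.174) or CM10 replicate 3 (0.144).

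HSPD1 and HSPE1, the ring and the lid of the mitochondrial chaperonin, both fell. HSPD1 was at 97.5, 39.6 and 78.4 TPM in CTRL_CM10 and 18.4, 10.3 and 1.68 TPM in CM10. The groups were apart, and the difference was -3.03 ± 0.99 (adjusted p = 0.0294). HSPE1 was at 259, 104 and 163 TPM in controls and at 31.5 TPM in CM10 replicate 1, and it was listed at 0 in CM10 replicates 2 and 3. Its fitted difference of -5.69 ± 1.19 (adjusted p = 0.00397) stood at the 0.1 percentile of all genes tested, and it depends on the pseudocount, since 0.1 in place of 1 gave -7.91. A value of 0 in a TPM table can be a failed estimate, and genes that every cell uses, such as the TRiC subunit CCT2, were also listed at 0 in CM10 replicates 2 and 3. The call of HSPD1 was lost without CTRL_CM10 replicate 1 (adjusted p = 0.0600), CTRL_CM10 replicate 3 (0.0726), CM10 replicate 2 (0.0771) or CM10 replicate 3 (0.171), while HSPE1 kept its call without any 1 library.

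HSPB1 and DNAJB1 did not pass the test. HSPB1, a small heat shock protein that binds actin filaments and unfolded clients, was at 753, 420 and 665 TPM in CTRL_CM10 and 505, 147 and 12.1 TPM in CM10, with CM10 replicate 1 above the lowest control (-2.58 ± 1.36, adjusted p = 0.138). DNAJB1, the main J domain partner of inducible HSP70, was at 37.1, 16.2 and 40.9 TPM against 11.98, 8.05 and 0 TPM. The DNAJB1 groups did not overlap, and the difference of -2.62 ± 1.03 had an adjusted p of 0.0581. The 95% interval of HSPB1 (-5.44 to 0.28) held 0, whereas that of DNAJB1 (-4.78 to -0.46) did not. Without CM10 replicate 3 the estimate of HSPB1 was -1.12 and that of DNAJB1 -1.48 (adjusted p = 0.344 for DNAJB1), and without CM10 replicate 1 DNAJB1 passed (adjusted p = 0.0235).

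HSPA4L moved the other way. This HSP110 protein, known for roles in testis and as a nucleotide exchange factor of HSP70, was at 39.8, 0.83 and 1.68 TPM in CTRL_CM10 and 357, 353 and 443 TPM in CM10. All 3 CM10 libraries were above all controls, and the 3 differed little among themselves. The difference was 6.03 ± 1.15 (adjusted p = 0.00344) and stood at the 98.5 percentile of all genes, and the call held without any 1 library. HSPA4L took 353 to 443 of the 492 to 1271 TPM that the 10 genes summed to in a CM10 library. Its level ran beside the share of TPM in genes with a repeat word (such words fill positions of its 3′ UTR), which was 77.8% to 83.5% in CM10. Among all genes tested, 29.0% of those with a repeat word rose and 9.3% fell, against 2.5% and 24.9% of those without. The part of repeat reads in the HSPA4L value was not tested.

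**Figure D2:**
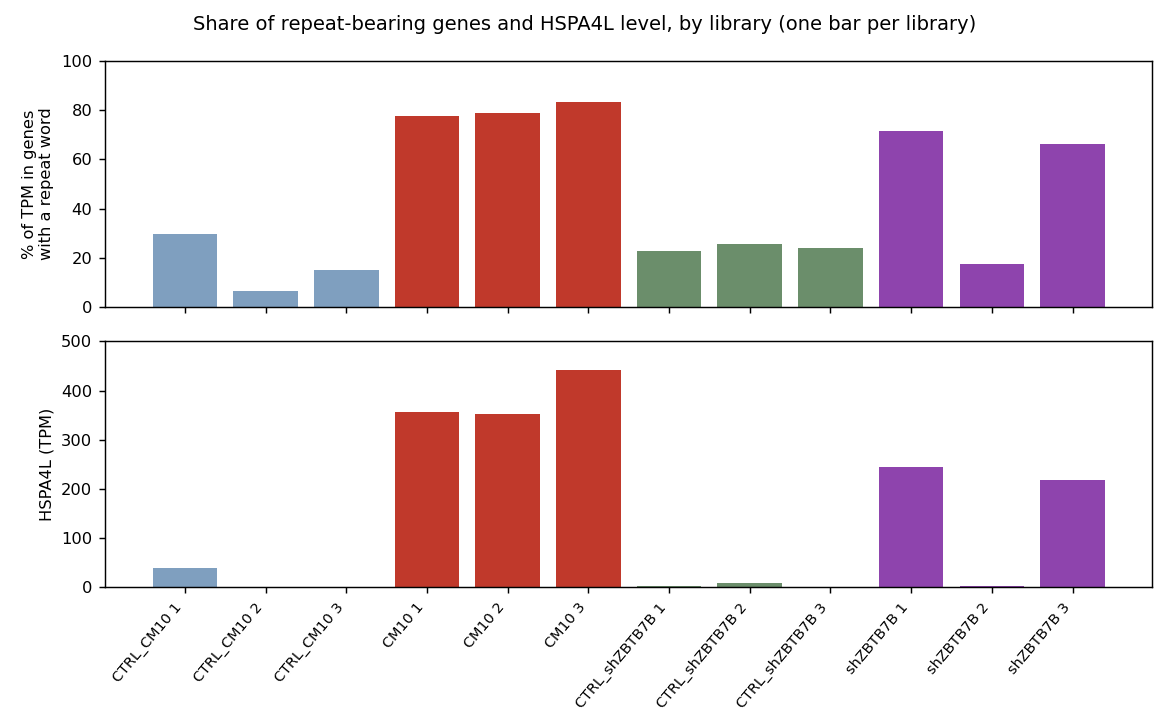
Share of TPM in genes with a repeat word (upper panel, percent) and HSPA4L level (lower panel, TPM), 1 bar per library. The 5 libraries with 66.1% to 83.5% of TPM in such genes are the 5 with HSPA4L at 218 TPM or more, and in the other 7 HSPA4L is at most 39.8 TPM.

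In the hairpin experiment 1 of the 10 genes passed the test. HSPA1A fell, and 11% of the 13665 genes tested fell and 0.717% rose, around a median difference of -1.45 on the log2(TPM + 1) scale. Leaving HSPA4L aside, 9 of 9 members had negative estimates, with a median of -2.29. Most genes had negative estimates as well, since an estimate of 0.009 (ACOT9) stood at the 76.8 percentile of all genes tested. Of the 9 members, 6 had groups that did not overlap, where 42.4% of all genes were lower without overlap and 3.02% higher. HSPA4L was set apart after its direction was seen, so these counts are a description. The 9 members summed to 2958, 6805 and 4100 TPM in CTRL_shZBTB7B and to 763, 1532 and 777 TPM in shZBTB7B. Markers of endothelium and fibroblasts were lower in the same libraries. The 5 endothelium markers summed to 365, 173 and 333 TPM in the controls and to 0, 10.8 and 13.4 TPM with the hairpin, and all 5 were listed at 0 in shZBTB7B replicate 1. The 6 fibroblast markers summed to 1292, 1816 and 3296 TPM against 61.6, 325 and 96.2 TPM, COL3A1 being listed at 0 in shZBTB7B replicate 1 and COL1A2 in replicate 3. Both sums were apart between the groups, and their part in the chaperone levels was not tested. The sums of colon carcinoma, leukocyte, muscle, stomach, erythroid and MTRNR2L markers overlapped between the groups. Those of stomach were 940, 65.1 and 2.64 TPM in the controls and 189, 42148 and 6314 TPM with the hairpin. Among genes without a repeat word, rescaled, 7 members were tested and limma called 0 of them and 0 of all 8674 genes, with 3 members and 2566 genes at an unadjusted p under 0.05. The median of the 7 was then -1.59 beside -1.41 for all genes, with 4 of the 7 below it, and HSPA8 went from -2.0 to -0.99 and HSP90AB1 from -1.84 to -0.83. The number of genes called over the whole table depended on single libraries. Without shZBTB7B replicate 2, the library that stands near the controls, limma called 6810 genes, and without any other single library it called 0, with 2759 to 4530 genes at an unadjusted p under 0.05.

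HSPA1A was at 96.7, 473 and 276 TPM in CTRL_shZBTB7B and 0, 39.5 and 10.4 TPM in shZBTB7B. Each hairpin library was below every control (-4.92 ± 1.33, adjusted p = 0.0486). HSPA1B was at 39.5, 175 and 397 TPM against 37.3, 18.3 and 9.86 TPM, and its groups were apart by little, CTRL_shZBTB7B replicate 1 being close to shZBTB7B replicate 1 (-2.82 ± 0.97, adjusted p = 0.0764). Summed, the twins were at 136, 647 and 673 TPM in controls and 37.3, 57.8 and 20.3 TPM with the hairpin. The summed pair fell by 3.43 on the log2 scale (adjusted p = 0.0428). The call of HSPA1A was lost without CTRL_shZBTB7B replicate 1, 2 or 3 (adjusted p = 0.198, 0.158 and 0.184) and without shZBTB7B replicate 1 or 3 (0.126 and 0.103), as were all other calls of those fits.

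HSPA8, HSP90AA1, HSP90AB1 and HSPB1 were lower in every hairpin library than in any control, with adjusted p between 0.0590 and 0.0834. HSPA8 was at 541, 725 and 860 TPM in controls and 100.5, 271 and 192 TPM in shZBTB7B (-2.0 ± 0.64, adjusted p = 0.0648). HSP90AA1 was at 359.9, 547 and 617 TPM against 128, 176 and 82.9 TPM (-2.0 ± 0.62, adjusted p = 0.0621). Its partner HSP90AB1 was at 463, 659 and 739 TPM against 216, 257 and 87.3 TPM (-1.84 ± 0.66, adjusted p = 0.0834). HSPB1, abundant in muscle as well as in epithelium, was at 1127, 3685 and 599 TPM in controls and 242, 307 and 149 TPM with the hairpin (-2.60 ± 0.79, adjusted p = 0.0590), the highest control being CTRL_shZBTB7B replicate 2, which also had 45918 TPM of muscle markers. Its part in that level was not tested.

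The remaining 4 genes overlapped between groups. HSPD1 was at 95.6, 170.5 and 198 TPM in CTRL_shZBTB7B and 21.1, 103 and 11.2 TPM in shZBTB7B (-2.29 ± 0.90, adjusted p = 0.102). Its lid HSPE1 was at 179.6, 299 and 338 TPM in controls, and was listed at 0 in shZBTB7B replicate 1 beside 279 and 223 TPM in replicates 2 and 3 (-2.73 ± 1.92, adjusted p = 0.296). Without that replicate the HSPE1 estimate was -0.076 (adjusted p = 0.936). DNAJB1 was at 56.4, 73.1 and 75.6 TPM against 17.4, 81.9 and 11.6 TPM (-1.36 ± 0.85, adjusted p = 0.249), near the median of all genes. In each of HSPD1, DNAJB1 and HSPE1 the highest hairpin value was that of replicate 2. The same held for HSPA1A, HSPA8, HSP90AA1, HSP90AB1 and HSPB1, whose groups did not overlap, while HSPA1B was highest in replicate 1. HSPA4L was at 2.35, 9.81 and 0.73 TPM in controls and at 245, 1.80 and 218 TPM in shZBTB7B replicates 1 to 3 (3.74 ± 1.70, adjusted p = 0.139). The 2 high libraries held 71.7% and 66.1% of TPM in genes with a repeat word and the low one 17.4%.

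Without shZBTB7B replicate 2, HSPA4L and 7 of the other 9 members passed the test. HSPA4L was then higher by 5.87 (adjusted p = 0.00455). HSPD1 had an estimate of -3.18 (adjusted p = 0.00699), HSPA8 had an estimate of -2.32 (adjusted p = 0.0109) and DNAJB1 one of -2.17 (adjusted p = 0.0115). That fit called 6810 of 13247 genes, 5298 lower and 1512 higher, while leaving out any other single library gave no call at all. The library left out is the one that stands near the controls, so leaving it out favours larger differences. These passes are a description. The fit leaves 2 hairpin libraries, with the spread taken from all 5.

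**Figure D3:**
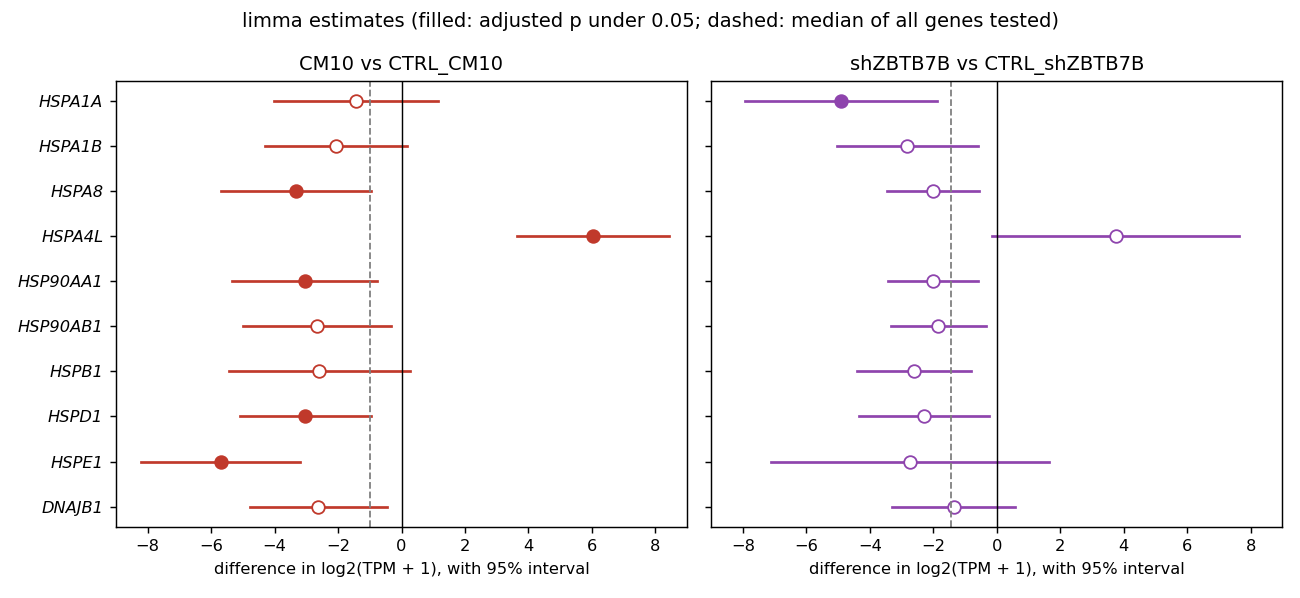
Difference from control for each heat shock chaperone with its 95% interval, in log2(TPM + 1), for CM10 (left) and shZBTB7B (right). Filled points passed an adjusted p under 0.05, and the dashed line is the median of all genes tested (-1.0 and -1.45). HSPA4L alone lies to the right of 0, and the 9 others lie to the left.

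No member passed a test of CM10 effect minus hairpin effect, fitted over all 12 libraries. limma called 0 of 11937 genes, with 1133 at an unadjusted p under 0.05, and adjusted p for the members ranged from 0.571 to 0.998. The intervals were wide. HSPA1A differed by 3.49 (95% interval -0.83 to 7.81, CM10 minus hairpin), HSPE1 by -2.96 (-8.14 to 2.22) and HSPA4L by 2.29 (-2.20 to 6.78). HSPB1 was the closest, with -2.58 in CM10 and -2.60 in the hairpin experiment, a difference of 0.02 (-3.54 to 3.56). Since these intervals span several log2 units, the test does not show that the responses were alike. No library is shared between the experiments.

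Ratios of family partners within a library do not move with what other genes take of the total, apart from the 1 TPM added to each value before the log. With 3 libraries against 3 the smallest exact p is 0.10, so no ratio could pass 0.05. For HSP90AA1 to HSP90AB1 the log2 ratio was -0.45 ± 0.56 (mean ± SD, n = 3) in CTRL_CM10 and -0.84 ± 0.76 in CM10, a difference of -0.39 (exact permutation test, two-sided p = 0.6, adjusted over 6 tests 0.72). For the hairpin that ratio was -0.30 ± 0.06 and -0.46 ± 0.35 (exact p = 0.5, adjusted 0.72). The log2 ratio of the HSP90 pair lay between -1.66 and -0.07 in the 12 libraries, so HSP90AB1 was the higher in each of them.

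The inducible HSP70 genes scattered more widely against HSPA8. For the sum of HSPA1A and HSPA1B to HSPA8, the log2 ratios were -3.35, -3.31 and -1.57 in CTRL_CM10 and -0.32, -1.02 and -1.66 in CM10, a difference of 1.74 (exact p = 0.2, adjusted 0.4). In the hairpin experiment they were -1.98, -0.16 and -0.35 in controls and -1.41, -2.21 and -3.18 in shZBTB7B, a difference of -1.43 (exact p = 0.2, adjusted 0.4). Both comparisons had overlap. For HSPE1 to HSPD1 the control ratios were close together, at 1.40, 1.37 and 1.05 in CTRL_CM10 and 0.90, 0.81 and 0.77 in CTRL_shZBTB7B. In CM10 they were 0.74, -3.50 and -1.42, all below the controls (difference -2.67, exact p = 0.1, the smallest the design allows, adjusted 0.4). HSPE1 was listed at 0 in the 2 lower of these libraries, so their ratios are set by the 1 TPM added. The difference was -4.65 with 0.1 added and -1.61 without CM10 replicate 2. In shZBTB7B they scattered from -4.47 to 4.20 with replicate 2 at 1.43 (difference -0.44, exact p = 1.0). The 2 extremes came from replicates in which HSPE1 was listed at 0 or HSPD1 was at 11.2 TPM.

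**Figure D4:**
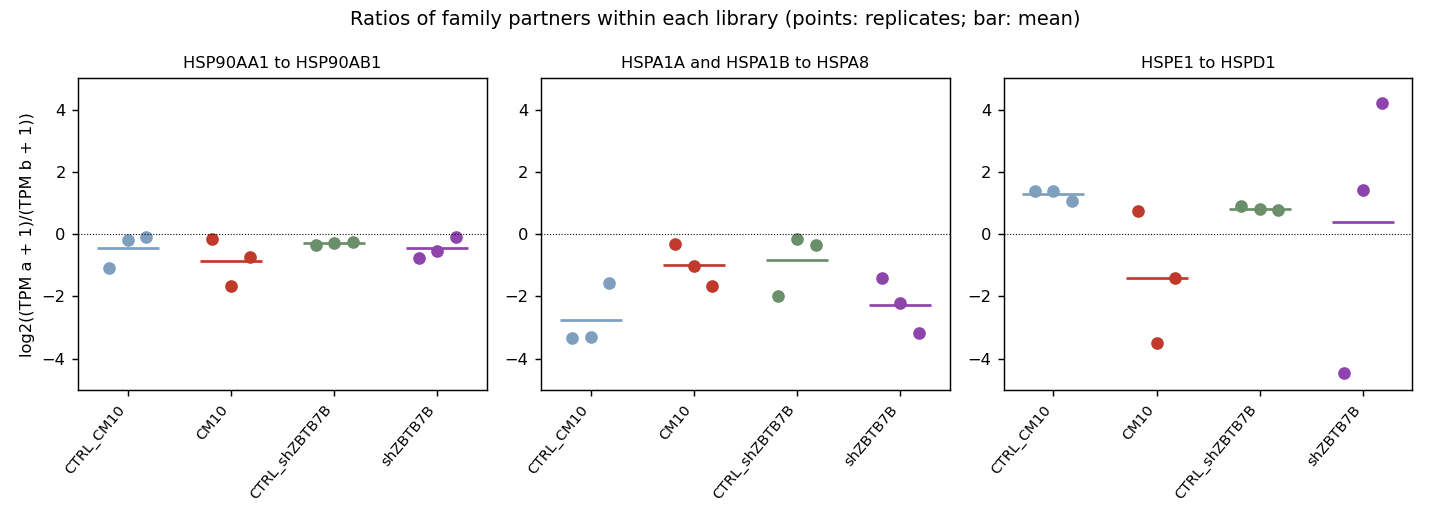
Log2 ratios of family partners within each library for the 4 groups (points are replicates and bars are means). The ratio of the HSP90 pair lies between -1.66 and -0.07, the HSP70 ratio overlaps between treated and control groups, and the chaperonin ratio is tight in the controls (0.77 to 1.40) and scattered in treated libraries (-4.47 to 4.20).

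The other chaperone genes that passed are given by list. Among all genes tested, 18.3% fell and 13.6% rose in CM10, and 11% fell and 0.717% rose in the hairpin experiment. Of 4 genes tested in the list of heat shock transcription factors, 1 fell in each experiment. The list medians were -1.957 in CM10 and -2.125 in the hairpin experiment. That gene, HSF4, was at 2.30, 1.61 and 16.8 TPM in CTRL_CM10 and listed at 0 in all 3 CM10 libraries (fitted difference -2.42 ± 0.75, adjusted p = 0.0232). HSF4 was at 10.2, 5.72 and 7.02 TPM in CTRL_shZBTB7B and listed at 0 in all 3 shZBTB7B libraries (-3.08 ± 0.53, adjusted p = 0.0384). HSF1, the main stress regulator, was at 21.3, 10.8 and 31.9 TPM in CTRL_CM10 and at 12.6, 0 and 1.85 TPM in CM10. HSF1 was at 53.4, 93.6 and 67.4 TPM in CTRL_shZBTB7B and at 9.31, 31.1 and 4.91 TPM in shZBTB7B. It did not pass in either (adjusted p = 0.0563 and 0.0713). The fitted values of HSF4 depend on the pseudocount, since HSF4 was listed at 0 in both treated groups.

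In CM10, of 18 other J domain genes 4 fell and 1 rose, with a list median of -1.70 beside -1.0 for all genes. Over all genes 18.3% fell and 13.6% rose, and the shares of this list and of the next ones are to be read against that. DNAJB2, a neuronal J protein, was at 28.1, 10.9 and 36.3 TPM in controls and at 8.76, 0 and 0 TPM in CM10 (-3.46 ± 1.02, adjusted p = 0.0188), and DNAJB4 fell by 3.26 (adjusted p = 0.0112). DNAJC21, a ribosome biogenesis J protein, rose by 7.24 ± 1.76 (adjusted p = 0.00723). It was at 1310, 10.8 and 39.5 TPM in controls and at 13317, 11275 and 14254 TPM in CM10. DNAJC21 carries 99 different repeat words. Of 20 cochaperones 3 fell and 2 rose (list median -1.83). HSPBP1, an HSP70 nucleotide exchange factor, was at 7.65, 6.86 and 15.1 TPM in controls, and every CM10 library listed it at 0 (-3.37 ± 0.75, adjusted p = 0.00487), and AHSA1, the activator of HSP90 ATPase, had -3.52 ± 1.13 (adjusted p = 0.0272). PPID, a cyclophilin partner of HSP90, was at 38.1, 9.82 and 11.6 TPM and at 219, 183 and 181 TPM in CM10 (3.48 ± 1.00, adjusted p = 0.0168), and SUGT1 rose by 3.00 (adjusted p = 0.0213). Both PPID and SUGT1 carry repeat words, 79 and 161 different ones. Of the 14 TRiC and prefoldin genes, which fold actin and tubulin, 3 fell and 0 rose (list median -2.49), among them CCT2 (-3.88 ± 1.02, adjusted p = 0.0112) and CCT8 (-2.78 ± 0.92, adjusted p = 0.0308). By limma 0 genes passed among 11 other HSP70 and HSP110 genes, 2 other HSP90 genes, 5 small heat shock genes and 9 mitochondrial chaperones and proteases, with 3, 0, 0 and 4 at an unadjusted p under 0.05. Their medians were -0.66, -1.83, -0.88 and -1.85.

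In the hairpin experiment 4 of 12 other HSP70 and HSP110 genes fell and none rose, where 11% of all genes fell and 0.717% rose. HYOU1, an HSP110-like chaperone of the endoplasmic reticulum, was at 23.3, 23.7 and 59.7 TPM in controls and 0, 3.96 and 1.79 TPM in shZBTB7B (-3.79 ± 0.92, adjusted p = 0.0435), and HSPA6, a strictly inducible HSP70, was at 11.2, 4.32 and 20.7 TPM against 0, 1.57 and 0 TPM (-3.03 ± 0.80, adjusted p = 0.0470). Of 18 J domain genes DNAJB12 fell (-3.81 ± 0.89, adjusted p = 0.0405) and DNAJC21 rose (6.79 ± 1.74, adjusted p = 0.0455). DNAJC21 was at 14785, 89.4 and 10489 TPM in shZBTB7B replicates 1 to 3, beside 12.5 to 30.3 TPM in the controls. By limma 0 genes passed among 20 cochaperones, 14 TRiC and prefoldin genes, 9 mitochondrial genes, 5 small heat shock genes and 2 HSP90 genes, with 11, 7, 4, 3 and 1 at an unadjusted p under 0.05. Their medians were -1.88, -1.99, -2.09, -3.15 and -3.90, beside -1.45 for all genes. Over the 8 lists and the 10 members together, the chaperone genes that rose in CM10 were 4, all with a repeat word, and of the 15 that fell 13 had none, where 28 genes with and 61 without a repeat word were tested. Of those with a word 14.3% rose and 7.1% fell, and of those without 0% and 21.3%, beside 29.0% and 9.3% of all genes with a word and 2.5% and 24.9% of all genes without. In the hairpin experiment 1 of 28 chaperone genes with a word rose and 0 fell, and 0 of 62 without rose and 7 fell (11.3%), beside 5.0% of all genes with a word and 14.4% without that fell.

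Across the 12 libraries the 9 members other than HSPA4L varied together. Pearson's r of log2(TPM + 1) ranged from 0.611 to 0.968 over their 36 pairs, with a median of 0.841, and HSP90AA1 with HSP90AB1 gave the highest. HSPD1 was closest to DNAJB1 (r = 0.962) and HSPA8 to HSP90AA1 (r = 0.963). HSPA4L had a negative r with every other member, from -0.81 (HSPD1) to -0.546 (HSPA1B). Of the 7127 genes that averaged 10 TPM or more, those with a pattern most like the mean of the members included NR1H2 (0.986), PPP2R1A (0.983), IK (0.980), MKRN1 (0.979) and BSG (0.979). NR1H2, a nuclear receptor for oxysterols, was at 37.7, 9.17 and 29.0 TPM in CTRL_CM10 and at 14.4, 3.38 and 0 TPM in CM10. It was at 42.8, 78.9 and 59.1 TPM in CTRL_shZBTB7B and at 5.53, 37.4 and 9.77 TPM in shZBTB7B. These correlations are a description over 12 libraries that share a fixed total, the group structure and the repeat and MTRNR2L shares given above, and the median gene without a repeat word had a difference of -1.61 in CM10 and -1.87 in shZBTB7B.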

How the data were processed

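RNA from 12 libraries labelled HT29 was sequenced after probe capture, in 4 groups of 3 given by the sample titles. Per the methods, the authors used HISAT for alignment to build hg19 and RSEM for quantification, and no version was found for either. For each experiment they deposited a table of 18665 genes by 6 libraries. Its values were read as TPM, as deposited by the authors, from the methods and from column sums of 1000000, as the headers name no unit. TPM keeps no depth, so no counting interval was given.

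Levels were analysed as log2(TPM + 1), a scale that understates changes of low genes. Genes with at least 1 TPM in at least 3 of the 6 libraries were tested with limma 3.58.1 (R 4.3.3; group only, variance trend, not robust, two-sided, Benjamini-Hochberg over all genes tested). Genes with an adjusted p under 0.05 are said to have risen or fallen. The method by which the study called genes was not stated fully enough to repeat. At its thresholds, FDR below 0.001 with a log2 change of more than 1, limma called 0 genes in both comparisons, with 5972 and 5317 at an unadjusted p under 0.05. Ratios within libraries were tested by exact permutation.

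The 10 members and the 8 chaperone lists were chosen with earlier results of these data known. From each list the 2 genes with the smallest p per direction and comparison were named, and HSF1 was added after its values were seen. Repeat words were searched in protein-coding GENCODE transcripts (96.2% of genes). Scripts used Python 3.11.15, pandas 2.3.3, numpy 2.4.6 and scipy 1.17.1. The limma test alone was also run on simulated data. CRYAA and proteins were not analysed here. Some items that the rules would name are not reported here. Alternatives were quantile normalization, leaving out MTRNR2L genes, dropping the filter, adding 0.1 in place of 1, blocking on replicate number, and omitting each library. Leaving out genes with a repeat word and summing HSPA1A with HSPA1B were added after seeing the data.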

Additional observations from a re-analysis of the deposited data

How the results depend on the processing

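In CM10 the number of genes called was 4003. It was 7182 without MTRNR2L genes, 1964 with a pseudocount of 0.1, 152 among genes without a repeat word and 1891 to 5918 with 1 library left out. In the hairpin experiment it was 1602, and limma called 0 genes after quantile normalization, without MTRNR2L genes, without the filter and among genes without a repeat word (3085, 4851, 5807 and 2566 at an unadjusted p under 0.05), 468 with a pseudocount of 0.1 and 0 to 6810 with 1 library left out. HSPA4L kept its call in CM10 under all 11 alternatives run (5.20 to 7.43), HSPE1 under 11 of 12, HSPA8 under 6 of 12, HSP90AA1 under 5 of 12 and HSPD1 under 6 of 11. The fit among genes without a repeat word left out HSPA4L, HSPD1 and DNAJB1, so the rise of HSPA4L was not tested in it. HSPA1A kept its call in the hairpin experiment under 3 of 13. All signs held apart from these: HSPA1A in CM10 ran from -2.83 to 0.117 with 1 library left out, the highest without CM10 replicate 3. The difference between effects was -0.44 for HSPA1B and -0.016 for HSPB1 with a pseudocount of 0.1, and -0.72 for HSPB1 after quantile normalization. The HSP90AA1 to HSP90AB1 ratio in CM10 ran from -0.736 to 0.012 with 1 library left out (highest without CM10 replicate 2), and the HSPE1 to HSPD1 ratio in shZBTB7B from -2.35 to 1.99 (highest without shZBTB7B replicate 1). Same-numbered libraries did not deviate together (r from -0.079 to 0.028), so the numbers were not read as pairs. With the replicate number as a block limma called 4805 and 1387 genes, HSP90AA1 lost its call in CM10 (adjusted p = 0.0503), DNAJB1 gained one (0.0369), and no other member changed sides. Depth is unknown, values at 0 may be failed estimates, and 3 libraries a group limit every interval.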
